A study of Bos taurus with 12 samples.

Results

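TGF-beta, myostatin and activin signalling was examined in bovine muscle cells through 10 genes: the ligand genes INHBA, MSTN, TGFB1, TGFB2 and TGFB3, the antagonist FST, the receptors TGFBR1 and TGFBR2, and the intracellular SMAD3 and SMAD7. The genes were taken by name, 10 of the 18436 genes in the expression table, together with every m6A peak annotated to one of them. These were 16 of 19739 peaks in the GM list and 15 of 20790 in the DM list.

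The cells were primary myoblasts from the longissimus dorsi muscle of newborn Qinchuan cattle. GM cells were proliferating at 80% confluence in growth medium with 20% fetal bovine serum, and DM cells were myotubes at 100% confluence after 4 days in differentiation medium with 2% horse serum. From 3 cultures per group, poly(A) RNA was sequenced both as an input library and after immunoprecipitation (IP) with an antibody against N6-methyladenosine (m6A), giving 12 samples in all. The study asked how mRNA levels and m6A differ between both stages. The methods describe the cells as coming from a newborn animal, so the cultures may share 1 donor. The p-values below then measure only the spread between these cultures, and serum, cell density and days in culture cannot be told apart from differentiation itself.

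Ligands of this family are secreted as dimers that bring type II and type I receptor kinases together at the cell surface. Receptors of the TGF-beta and activin branch phosphorylate SMAD2 and SMAD3, which enter the nucleus with SMAD4. Myostatin (MSTN) is best known as a brake on muscle growth, and cattle with loss of its function are double-muscled. Follistatin (FST) binds activins and myostatin outside the cell and keeps them from their receptors. m6A is a methyl mark on adenosines of mRNA that is often found near the stop codon and in the 3′ UTR.

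Expression is given as FPKM, the fragments mapped to a gene divided by its exon length and by the mapped fragments of the library, which is a value per length and allows levels of different genes to be set side by side. The sum of FPKM over all genes was 415740 to 434458 in the GM libraries and 386437 to 390827 in the DM libraries. The median log2 change of the 12302 genes tested was -0.05, and 0.06 after scaling every library to the same sum (TPM). Of genes called at an unadjusted p under 0.05 with a change of over 1.5-fold, 41.3% were higher in DM with FPKM and 55.1% with TPM. All 4 markers of proliferating myoblasts (PAX7, MYF5, MYOD1, MKI67) fell in DM, and 6 of 7 myotube markers rose, while MYMK did not pass the test (adjusted p = 0.083, limma). Myotube genes were already expressed in GM, where MYOG was at 190 to 207 FPKM and MYH3 at 270 to 275 FPKM. The 7 fibroblast markers summed to 10284 to 10431 FPKM in GM and 11635 to 12199 FPKM in DM. Most of the sum came from COL1A1 (6634 to 7584 FPKM) and COL3A1 (2353 to 3304 FPKM). PDGFRA was at 34.7 to 44.8 FPKM and TCF21 at 1.51 to 2.29 FPKM. Of the 7 genes, 3 rose (PDGFRA, COL3A1, DCN) and 1 fell (TCF21). In any library the markers of adipocytes summed to at most 2.66 FPKM, those of immune cells to at most 1.98 FPKM and those of endothelial cells to at most 0.653 FPKM. The part of fibroblast-like cells in the values below was not tested.

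Across the 10 genes, INHBA and SMAD7 rose in DM and TGFB3, MSTN and FST fell. These 5 of 10 genes passed limma's moderated test on log2(FPKM + 1) at a Benjamini-Hochberg adjusted p under 0.05. By this rule 42.8% of all 12302 genes tested were called, 16.1% as higher and 26.7% as lower, so 50.0% among the 10 genes lay near the background. With the rule of the study, an unadjusted p under 0.05 and a change of over 1.5-fold, 4 of the 10 genes were called against 11.9% of all genes. The study applied these thresholds to edgeR results. Here they were applied to limma on log2(FPKM + 1), so the calls are not those of the study. INHBA was the gene called higher, against 4.90% of all genes, and TGFB3, MSTN and FST were called lower, against 6.97%. The GM and DM cultures did not overlap in 9 of the 10 genes (54.1% of all genes, 21.1% with DM higher and 33.0% with DM lower), TGFBR1 being the exception. The median size of the log2 change was 0.34 among the 10 genes and 0.19 among all genes.

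**Figure D1:**
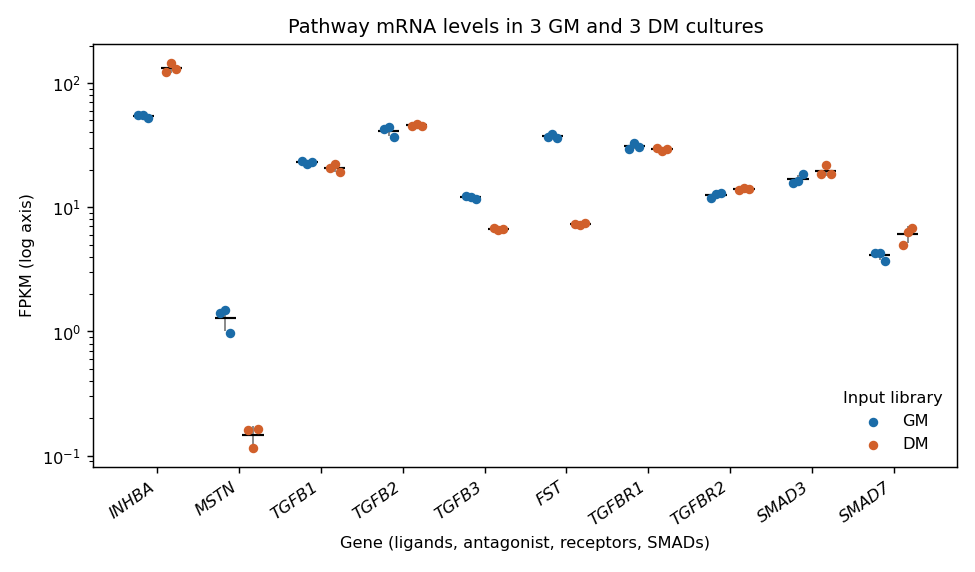
FPKM of the 10 genes in each input library on a log axis; points are the 3 GM (blue) and 3 DM (orange) cultures, black bars the group mean and grey lines ± 1 SD. INHBA lies above 120 FPKM in every DM culture and below 56 FPKM in every GM culture, while FST drops from above 35 to below 8 FPKM and MSTN is the lowest gene in both groups.

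INHBA encodes the beta A subunit that forms activin A (ENSBTAG00000048508, chr4:79288772-79302445, plus strand, genome build ARS-UCD1.2). Its FPKM was 55.71, 55.73 and 52.44 in the GM cultures and 123.2, 144.3 and 128.6 in the DM cultures. The lowest DM culture lay above the highest GM culture by more than the whole range of either group. The mean rose 2.42-fold, from 54.6 ± 1.89 to 132 ± 10.96 FPKM (SD, n = 3 cultures each), with a log2 change of 1.26 (SE 0.066, adjusted p = 3.4e-06, limma). INHBA was the most abundant of the 10 mRNAs at both stages, and its mean over the 6 libraries ranked 608 among all 18436 genes. In bulk RNA, more cells that express a gene and more RNA per cell cannot be told apart.

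MSTN (ENSBTAG00000011808, chr2:6278630-6285486, plus strand) was the least abundant of the 10 genes. FPKM was 1.403, 1.487 and 0.965 in GM and 0.16, 0.12 and 0.16 in DM. The groups did not overlap, and every DM culture was far below the lowest GM culture. The mean fell 8.77-fold on the FPKM scale, from 1.28 ± 0.28 to 0.146 ± 0.026 (SD, n = 3). The log2 change of FPKM + 1 was -0.99 (SE 0.106, adjusted p = 1.6e-04, limma), which understates the change of a gene this low, and with 0.1 in place of 1 as pseudocount it was -2.47. MSTN passed the filter of a mean of at least 0.5 FPKM through its GM cultures alone. Without that filter its adjusted p was 5.8e-04 (limma). No read counts or depth come with the FPKM values used here, and the mapped reads that the paper gives per library were not used. The counting error of the low DM values was therefore not estimated.

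The TGFB genes encode the 3 TGF-beta ligands, and in the fit of all 6 libraries TGFB3 passed the test while TGFB1 and TGFB2 did not. TGFB3 (ENSBTAG00000012004, chr10:87237844-87271480, minus strand) was at 12.37, 12.10 and 11.65 FPKM in GM and 6.83, 6.59 and 6.71 FPKM in DM. The values were tight within each group, and TGFB3 fell 1.80-fold, from 12.04 ± 0.37 to 6.71 ± 0.12 FPKM (log2 change -0.76, SE 0.054, adjusted p = 1.6e-05, limma).

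TGFB1 (ENSBTAG00000020457, chr18:50484512-50508692, minus strand) was at 23.71, 22.47 and 23.05 FPKM in GM and 20.82, 22.17 and 19.33 FPKM in DM. The highest DM culture lay just under the lowest GM culture. The log2 change was -0.15 (95% interval -0.29 to -0.01, adjusted p = 0.087, limma), and without DM culture 2 it passed the test at -0.19 (adjusted p = 0.043, limma). Over its 12 alternatives the adjusted p of TGFB1 ranged from 0.043 to 0.76.

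TGFB2 (ENSBTAG00000005359, chr16:21808003-21900539, plus strand) was the most abundant TGF-beta mRNA. FPKM was 42.61, 44.61 and 36.94 in GM and 45.03, 46.58 and 45.31 in DM. GM culture 3 stood below the other GM cultures, and the DM cultures lay just above the highest GM culture. The log2 change of 0.14 did not pass the test (95% interval -0.02 to 0.31, adjusted p = 0.145, limma), whereas after TPM scaling it was 0.27 (adjusted p = 0.033, limma) and without GM culture 3 it was 0.064 (adjusted p = 0.270, limma).

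Within each culture the make-up of the TGFB mRNA pool followed from these levels. TGFB3 made up 15.3 to 16.3% of the summed FPKM of TGFB1, TGFB2 and TGFB3 in GM and 8.74 to 9.40% in DM. TGFB2 held 51.6 to 56.3% in GM and 61.8 to 63.5% in DM, and TGFB1 held 28.4 to 32.2% in GM and 27.1 to 29.4% in DM. The TGFB1 shares overlapped between the groups and the other shares did not. The sum itself was 71.6 to 79.2 FPKM in GM and 71.3 to 75.3 FPKM in DM.

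FST (ENSBTAG00000003329, chr20:25580150-25586931, minus strand) showed the largest fall among the 10 genes. FPKM was 36.92, 38.74 and 35.79 in GM and 7.35, 7.21 and 7.52 in DM. The gap between the groups was many times the spread within either. FST fell 5.05-fold, from 37.1 ± 1.49 to 7.36 ± 0.15 FPKM (SD, n = 3), with a log2 change of -2.19 (SE 0.053, adjusted p = 2.0e-07, limma). Of all genes tested, 0.333% had a lower log2 change or the same one.

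Since FST binds activins and myostatin, its level was also set against theirs within each culture. The ratio of FST to INHBA was 0.663, 0.695 and 0.682 in GM and 0.0596, 0.04998 and 0.0585 in DM. It fell 12.2-fold, from 0.680 ± 0.016 to 0.0560 ± 0.0053 (SD, n = 3; two-sided exact permutation test p = 0.1). The ratio of FST to MSTN was 26.3, 26.1 and 37.1 in GM and 46.0, 62.0 and 46.1 in DM, which is higher in every DM culture because MSTN fell by the larger factor on the FPKM scale (exact permutation p = 0.1). With 1 added to every FPKM, the FST to MSTN ratio moved the other way, by -1.20 on the log2 scale in place of 0.79, so its direction rests on how the low MSTN values are treated. Of the 5 ratios compared, each had a p of 0.1 before and after Benjamini-Hochberg adjustment, and 0.1 is the smallest p that 3 against 3 cultures allow.

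**Figure D2:**
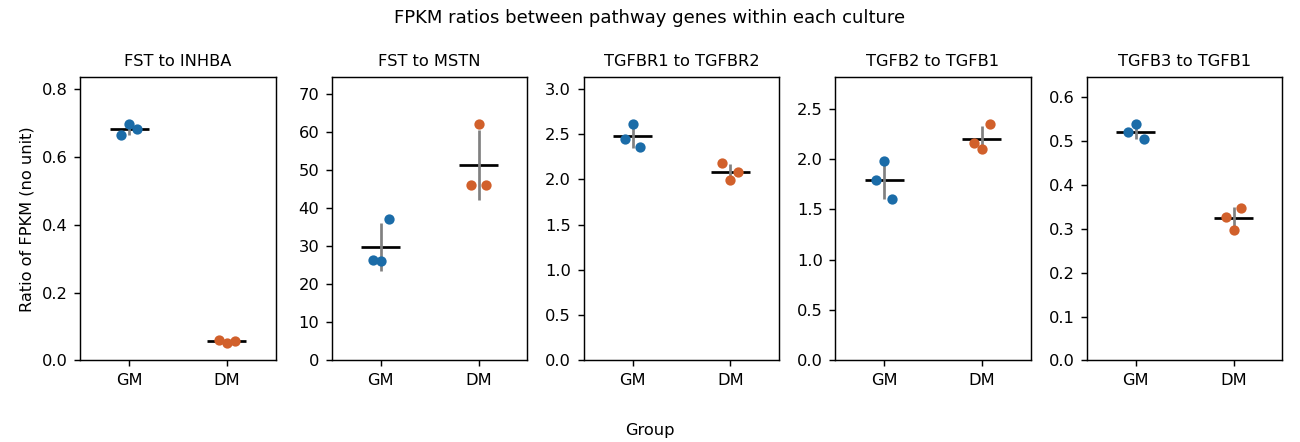
Ratio of FPKM between pairs of genes within each culture, each panel on its own linear axis from 0; points are 3 GM (blue) and 3 DM (orange) cultures, bars the mean and grey lines ± 1 SD. The FST to INHBA ratio lies near 0.680 in GM and near 0.0560 in DM, and the groups do not overlap in any of the 5 panels.

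TGFBR1 and TGFBR2 encode the type I and type II receptors of TGF-beta, and neither passed the test in the fit of all 6 libraries. TGFBR1 (ENSBTAG00000018035, chr8:64107418-64179245, plus strand) was at 29.36, 33.16 and 30.78 FPKM in GM and 29.94, 28.40 and 29.22 FPKM in DM. Here the groups overlapped. The log2 change was -0.09 (95% interval -0.22 to 0.05, adjusted p = 0.263, limma), and under TPM scaling its sign turned, at 0.035.

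TGFBR2 (ENSBTAG00000019832, chr22:5091037-5184321, plus strand) was at 11.97, 12.71 and 13.03 FPKM in GM and 13.76, 14.21 and 14.04 FPKM in DM. Every DM culture was slightly higher than every GM culture. The log2 change of 0.15 missed the threshold (95% interval 0.02 to 0.27, adjusted p = 0.060, limma). It passed without GM culture 3 (0.17, adjusted p = 0.035, limma) and under TPM scaling (0.27, adjusted p = 0.0060, limma). The ratio of TGFBR1 to TGFBR2 was 2.45, 2.61 and 2.36 in GM and 2.18, 2.00 and 2.08 in DM, lower in every DM culture (exact permutation p = 0.1).

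SMAD3 carries the signal from the receptors to the nucleus, and SMAD7 is the inhibitory SMAD that TGF-beta signalling itself induces. SMAD3 (ENSBTAG00000012599, chr10:13895783-14018262, plus strand) was at 15.72, 16.21 and 18.40 FPKM in GM and 18.68, 21.78 and 18.58 FPKM in DM. GM culture 3 came within 0.2 FPKM of the lowest DM culture. The log2 change of 0.22 missed the threshold (95% interval 0.03 to 0.41, adjusted p = 0.065, limma), and without GM culture 3 it was 0.28 (adjusted p = 0.019, limma).

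SMAD7 (ENSBTAG00000012441, chr24:48598830-48627410, minus strand) was at 4.32, 4.26 and 3.72 FPKM in GM and 5.00, 6.33 and 6.83 FPKM in DM. The DM cultures were all higher but less alike than the GM cultures. The mean rose 1.48-fold, from 4.10 ± 0.33 to 6.06 ± 0.94 FPKM (SD, n = 3; log2 change 0.46, SE 0.106, adjusted p = 0.0085, limma). Relative to the median change of all genes, the SMAD7 difference was 0.51 with FPKM and 0.57 with TPM.

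For the 5 genes that did not pass the test, the log2 change was also set against the median change of all genes. For TGFB2 this difference was 0.19 with FPKM and 0.21 with TPM, for TGFBR2 0.20 and 0.22, and for SMAD3 0.27 and 0.29. TGFB1 lay at -0.09 and -0.08, and TGFBR1 at -0.03 and -0.02.

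The order of mean levels in GM was INHBA, TGFB2, FST, TGFBR1, TGFB1, SMAD3, TGFBR2, TGFB3, SMAD7 and MSTN. Neighbours whose culture ranges overlapped there were TGFB2 with FST and TGFBR2 with TGFB3. In DM, FST stood in place 7 rather than place 3, between TGFBR2 and TGFB3. Neighbours that overlapped in DM were TGFB1 with SMAD3 and TGFB3 with SMAD7.

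Some genes had profiles over the 6 libraries close to those of MSTN, INHBA and FST, measured as the root mean square (RMS) difference of centred log2(FPKM + 1). The closest to FST were SOX8 (RMS 0.051), LMNB1 (0.064) and PLK1 (0.080), of which LMNB1 encodes a nuclear lamin and PLK1 a mitotic kinase. SOX8, which the paper lists among inhibitors of muscle development, fell from 5.94 to 0.509 FPKM. LMNB1 fell from 19.7 to 3.76 FPKM and PLK1 from 10.5 to 1.58 FPKM. The proliferation marker MKI67 fell from 17.8 to 0.895 FPKM in the same libraries, and its part in the FST result was not tested. Closest to MSTN were DDAH1 (RMS 0.038), POLQ (0.039) and BORA (0.048), and closest to INHBA were DACT1 (0.047), KCNN1 (0.048) and MYBPC1 (0.048). MYBPC1, which encodes a myosin-binding protein of skeletal muscle, went from 0.031 to 1.46 FPKM. Because 1 was added to every FPKM, genes close by this measure can differ in their fold on the FPKM scale. DDAH1 went from 48.5 to 24.3 FPKM beside the 8.77-fold fall of MSTN. KCNN1 went from 0.325 to 2.16 FPKM beside the 2.42-fold rise of INHBA. Each likeness is a description over 6 libraries that form 2 groups.

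The pathway around these genes was read from a list of 48 further genes, of which 40 passed the filter of a mean of at least 0.5 FPKM. Of these 40, 13 rose, 15 fell and 12 did not pass the test. That is 70% called, against 42.8% of all genes (16.1% as higher, 26.7% as lower). By the rule of the study 6 were higher and 5 lower (27.5%, against 11.9% of all genes). The balance turned with scaling: with TPM 16 rose and 11 fell, with 9 higher and 5 lower by the rule of the study, and with median-ratio size factors 15 rose and 12 fell. Among the 4 further ligand genes tested, INHBB, which encodes the activin beta B subunit, rose from 2.36 ± 0.19 to 6.62 ± 0.34 FPKM (adjusted p = 6.7e-06, limma). INHBE, an activin subunit gene better known from liver, fell from 5.34 ± 0.69 to 1.16 ± 0.085 FPKM (adjusted p = 5.7e-06, limma). GDF11, a close relative of myostatin, fell from 5.73 ± 0.65 to 3.59 ± 0.31 FPKM (adjusted p = 0.0015, limma). FSTL3, an antagonist related to FST, rose from 70.0 ± 2.49 to 87.4 ± 1.23 FPKM (adjusted p = 0.0010, limma), so FSTL3 and FST changed in opposite directions.

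Genes that hold TGF-beta in its latent form or release it moved both ways. Of 8 tested, 3 rose and 3 fell (16.1% and 26.7% of all genes). LTBP1, which binds the latent complex to the matrix, rose from 14.1 ± 0.40 to 26.2 ± 0.86 FPKM (adjusted p = 6.9e-06, limma). LRRC32, which tethers latent TGF-beta at the cell surface, fell from 53.5 ± 4.09 to 25.5 ± 1.10 FPKM (adjusted p = 9.5e-06, limma).

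Among the 5 further receptors tested, 2 rose and 2 fell (16.1% and 26.7% of all genes). The co-receptor TGFBR3 rose from 8.84 ± 0.96 to 17.4 ± 0.41 FPKM (adjusted p = 4.4e-05, limma), and the activin type I receptor ACVR1B from 1.98 ± 0.071 to 2.75 ± 0.24 FPKM (adjusted p = 0.0078, limma). The type II receptor ACVR2A, shared by activins and myostatin, fell from 15.5 ± 1.99 to 11.3 ± 0.45 FPKM (adjusted p = 0.0061, limma). ACVR2B, the other type II receptor of this branch, fell from 0.655 ± 0.067 to 0.354 ± 0.085 FPKM (adjusted p = 0.028, limma). With a mean of 0.504 FPKM, ACVR2B passed the 0.5 FPKM filter through its GM cultures. Without the filter its adjusted p was 0.014 (limma). The ACVR2B call was lost in 6 of 12 alternatives, among them TPM scaling (adjusted p = 0.053) and the fits without GM culture 1 (adjusted p = 0.094), without GM culture 2 (0.053), without DM culture 1 (0.056) and without DM culture 2 (0.081).

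Of the 13 further SMADs and their regulators, 4 rose and 3 fell (16.1% and 26.7% of all genes). SMAD2 rose from 29.7 ± 0.55 to 44.9 ± 1.97 FPKM (adjusted p = 5.6e-05, limma). SMAD4, the common partner, had 29.8 ± 1.94 FPKM in GM and 30.3 ± 0.87 FPKM in DM (log2 change 0.02, adjusted p = 0.79, limma, and -0.029 without GM culture 3). The feedback inhibitor PMEPA1 rose from 12.9 ± 1.09 to 28.1 ± 1.99 FPKM (adjusted p = 1.7e-05, limma). SMURF2, a ubiquitin ligase that acts on the receptors and SMADs, fell from 115.9 ± 1.12 to 43.5 ± 1.29 FPKM (adjusted p = 3.4e-07, limma).

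The 9 target genes, which TGF-beta is known to induce in mesenchymal cells, did not move together. Of these, 2 rose and 5 fell (16.1% and 26.7% of all genes). FN1 (fibronectin) rose 4.85-fold, from 928 ± 24.4 to 4498 ± 256 FPKM (adjusted p = 2.1e-07, limma). CCN2 rose from 813 ± 17.8 to 1347 ± 109 FPKM (adjusted p = 7.8e-05, limma). TGFBI fell from 920 ± 60.5 to 318 ± 24.1 FPKM (adjusted p = 1.9e-06, limma), and POSTN from 273 ± 19.9 to 132 ± 11.6 FPKM (adjusted p = 2.4e-05, limma). These are matrix genes that fibroblasts also express at high levels. COL1A1 was at 6634 to 7584 FPKM across the same libraries and did not pass the test (adjusted p = 0.123, limma). The part of fibroblast-like cells in the target gene changes was not tested.

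**Figure D3:**
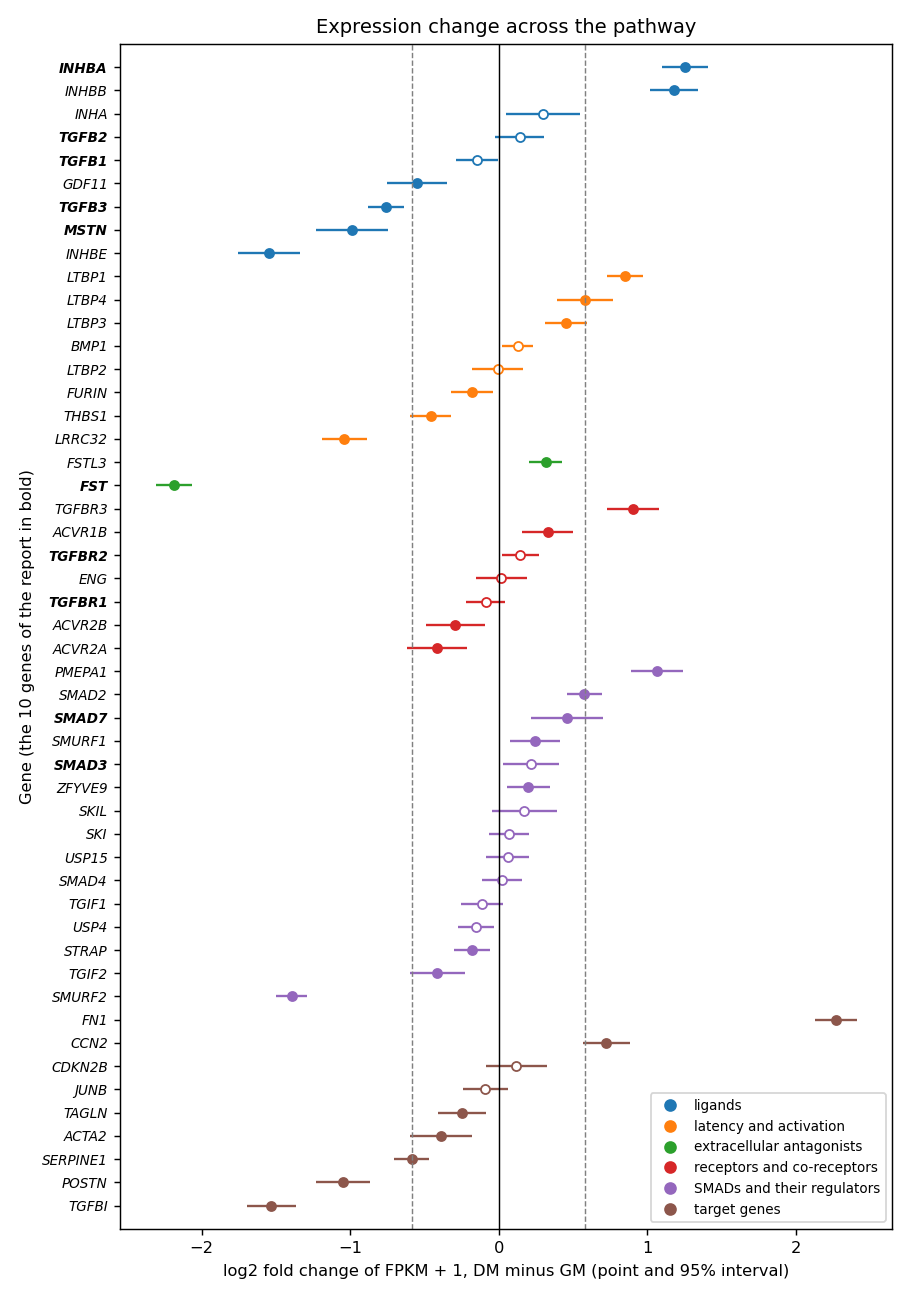
log2 fold change of FPKM + 1, DM minus GM, with its 95% interval for the 50 tested genes of the pathway list, grouped and coloured by role; filled points passed an adjusted p under 0.05, dashed lines mark 1.5-fold and the 10 genes of the report are in bold. FST (-2.19) and FN1 (2.27) lie at the ends, and every role with more than 1 gene holds changes in both directions.

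The m6A data are 1 peak list per group, with the libraries of a group combined into 1 value per peak. Fold enrichment is the ratio of IP over input signal in a peak, and it has 1 value per list and no replicate error. Differences in fold enrichment are therefore descriptions with no test. By gene name, 7 of the 10 genes had a GM peak (70.9% of all tested genes) and 8 had a DM peak (78.7%). The median fold enrichment of their peaks was 3.67 in GM and 5.32 in DM, beside 3.27 and 3.38 over all entries of each list. Of the GM entries, 9 of 16 were annotated to a 3′ UTR (42.6% of all GM entries), and of the DM entries 10 of 15 (45.3% of all).

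FST had no peak in either list, by name or by position. Of all tested genes 19.0% had none, and 18.1% of the 5365 genes with a mean from 10 FPKM upwards, where FST also lay, had none. INHBA and TGFBR1 had a peak by name in the DM list alone (10.1% of tested genes), and TGFBR2 in the GM list alone (2.32%).

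For INHBA the difference by name rested on the annotation. The DM peak at chr4:79288772-79301221 covered 2598 exon bases in 2 blocks with a fold enrichment of 7.95. The GM list held a peak at chr4:79288832-79300624 with 1941 exon bases and a fold enrichment of 5.87, whose 2 blocks share the inner exon ends of the DM peak, 387 and 10240 bases from the start of INHBA. That GM peak was annotated to bta-mir-11996, a microRNA gene on the other strand that lies between the blocks. All of its exon bases lay within the DM peak, and the ratio of DM to GM was 1.35.

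TGFB1 had 5 entries in each list. The entry at its 5′ end, chr18:50504141-50508692, had the same 2 blocks of 1344 bases in both lists, and fold enrichment was 4.31 in GM and 6.92 in DM (ratio 1.61). Towards the 3′ end, GM held a peak of 657 exon bases at chr18:50490832-50494289 with 5.23 where DM held 210 bases at chr18:50493376-50494289 with 1.52. The adjoining 3′ UTR peak was at 2.31 over 329 bases in GM and 3.15 over 568 bases in DM. These 3′ peaks overlapped each other in more than 1 combination and form no simple pair.

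The other TGFB1 entries are uncertain. In GM they lay at chr18:50483625-50487063 (4.98) and chr18:50488077-50488227 (1.90), and in DM at chr18:50481676-50487212 (4.29) and chr18:50488197-50488286 (1.40). The lists are ordered by strand within a chromosome, and 92.0% of the entries around these were annotated to plus strand genes, against 0% around the other TGFB1 entries. The DM entry at 1.40 had a false discovery rate of 0.141 and shared 31 bases with its GM counterpart. The longer entry of each list also has blocks beyond the annotated 3′ end of TGFB1 at chr18:50484512, such as chr18:50484310-50484439 in both lists. TGFB1 is on the minus strand, and the plus strand gene CCDC97 overlaps its 3′ end, so these peaks may belong to CCDC97.

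TGFB2 had 1 long peak from its 5′ UTR through the coding exons in each list, with 4.13 over 1376 bases in GM and 5.45 over 1735 bases in DM (ratio 1.32). All GM bases lay within the DM peak. A further DM peak in the 3′ UTR, chr16:21900001-21900509, had 1.47 and no GM counterpart.

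TGFB3, which fell in expression, kept strong 3′ UTR peaks in both lists. The peak at chr10:87237844-87238409 had 5.99 in GM and its DM counterpart, 477 bases from the same end, had 8.25 (ratio 1.38). The neighbouring peak at chr10:87238618-87238975 had 6.81 in GM and its counterpart 6.94 in DM (ratio 1.02). A 5′ peak of 805 bases had 3.68 in GM, and DM held 4.33 over 924 bases at the same exon, annotated there to the plus strand gene IFT43 although 2% of the entries around it were of plus strand genes. A GM entry of 61 bases next to it, with 1.25, was also annotated to IFT43.

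MSTN carried exonic peaks in both lists despite its low level. In GM they had 3.33 over 541 bases (exon 1 of 3) and 3.27 over 270 bases (exon 2 of 3), and in DM 6.39 over 661 bases (exon 1 of 3) and 5.32 over 181 bases (exon 3 of 3). The blocks covered nearly the same stretches up to 2941 bases from the gene start. The last block overlapped in part, at 4974 to 5178 bases in GM and 5088 to 5268 bases in DM. As the blocks were joined differently, no pair of 1 peak each could be formed. The last DM peak had a false discovery rate of 0.040, and the mean input level behind both DM values was 0.146 FPKM.

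TGFBR1 had 1 DM peak of 833 bases reaching into its 3′ UTR, chr8:64161112-64179096, with 4.11, and none in GM although its mRNA was at 31.1 FPKM there. The TGFBR2 peak of the GM list, 210 bases at the start of the gene, had a fold enrichment of 8.71 but a false discovery rate of 0.072, above a threshold of 0.05.

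SMAD3 had 1 peak in its last exons and 3′ UTR in each list, 3.47 over 270 bases at chr10:14015564-14018262 in GM and 6.15 over 240 bases in DM. The ratio of 1.77 was at percentile 92.1 among all pairs. SMAD7 had 3 GM peaks, 1.86 and 3.65 at its 3′ UTR and 3.22 at its first exon, and 1 DM peak of 1224 bases in 5 blocks that spanned first exon to 3′ UTR with 4.82. The GM peak with 1.86, chr24:48599277-48599874, had no DM counterpart.

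**Figure D4:**
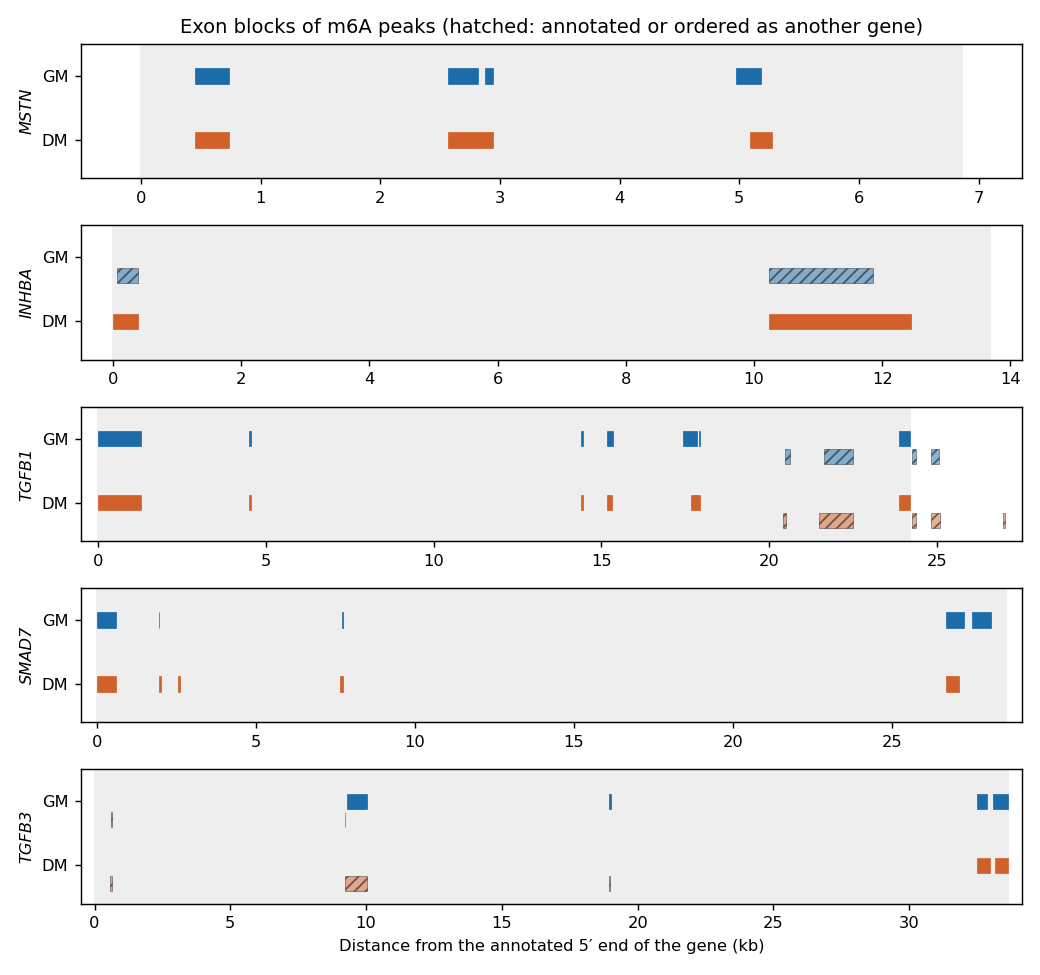
Exon blocks of the peaks of MSTN, INHBA, TGFB1, SMAD7 and TGFB3 in the GM (blue) and DM (orange) lists, against distance in kb from the annotated 5′ end; the grey band is the gene, and pale hatched blocks are entries annotated to another gene or, for TGFB1, listed among plus strand genes. The blocks of the TGFB1 5′ end coincide between lists, those of INHBA share their inner ends and reach further in DM, and SMAD7 has 3 GM peaks and 1 DM peak over much the same exons.

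By name, 7 pairs of exactly 1 GM and 1 DM peak could be formed in 4 genes (TGFB1, TGFB2, TGFB3, SMAD3). In 2 of the 7, SMAD3 and the TGFB1 5′ end, fold enrichment was over 1.5-fold higher in DM, and in none was it lower by as much. Among all 10239 pairs 25.0% differed by over 1.5-fold, 14.2% as higher in DM and 10.8% as lower. Fold enrichment was higher in DM in 5 of the 7 pairs (56.5% of all pairs), and the pairs that were lower are those of TGFB1 that may belong to CCDC97. The median ratio was 1.32 in the 7 pairs and 1.05 in all pairs. Of the genes that fell in expression, TGFB3 was the one that could be paired. Overlapping peaks that formed no pair went both ways. The TGFB1 3′ peak with 5.23 in GM overlapped DM peaks with 3.15 and 1.52. The GM peaks of MSTN (3.33 and 3.27) overlapped DM peaks with 6.39 and 5.32. Those of SMAD7 with 3.65 and 3.22 overlapped a DM peak with 4.82.

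**Figure D5:**
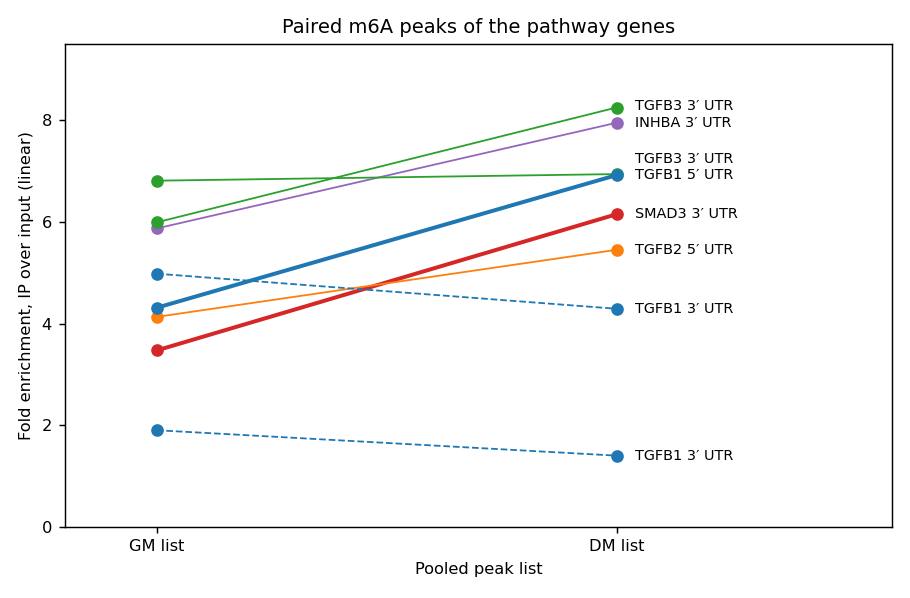
Fold enrichment (IP over input, linear axis) of the paired peaks in the GM and DM lists, 1 line per pair and 1 value per list with no error; thick lines differ by over 1.5-fold, dashed lines are the TGFB1 entries listed among plus strand genes, and INHBA is paired by position. SMAD3 goes from 3.47 to 6.15 and the TGFB1 5′ end from 4.31 to 6.92, and among the pairs shown only the dashed ones go down. Peaks that formed no pair are not shown.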

How the data were processed

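Per the submitters' processing notes and the methods, the authors trimmed reads, aligned them with HISAT2 to ARS-UCD1.2 and quantified genes with StringTie. The deposited gene table holds FPKM of the 6 input libraries. The methods name MACS2 for peaks of single samples and exomePeak for peaks of each condition, with ChIPseeker for annotation. The authors deposited 1 list for GM and 1 for DM, whose columns are those of exomePeak and give 1 value per group; that the libraries were pooled for it was inferred from this. The fold enrichment in these deposited lists is a linear ratio, IP to input, and the score column is the authors' deposited unadjusted p-value, with log10 of the p-value and of the false discovery rate in further deposited columns.

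Expression was tested with limma 3.58.1 in R 4.3.3 on log2(FPKM + 1), with a variance trend, unpaired, keeping genes whose 6 libraries averaged 0.5 FPKM or more, with Benjamini-Hochberg adjustment over all 12302 genes. MSTN, ACVR2B and PAX7 passed the 0.5 FPKM filter through their GM cultures, as all their DM values were below it. So did POLQ, with a DM mean of 0.261 FPKM. KCNN1 and MYBPC1 passed through their DM cultures, with GM means of 0.325 and 0.031 FPKM. Ratios within cultures were tested with exact permutation over cultures. Peaks were paired by at least 1 shared exon base on the same strand in Python 3.11.15 (pandas 2.3.3, numpy 2.4.6, scipy 1.17.1, matplotlib 3.10.9). The precision of a level is the spread of 3 cultures, since read depth is not in the tables used. The methods were tested on simulated data.

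The 10 genes, the pathway list and the marker lists were chosen with earlier results of these data known. All 10 genes are named. Of the pathway list, each role gives the 2 largest rises and 2 largest falls past the rule of the study, and ACVR1B, ACVR2A, ACVR2B, GDF11, FSTL3, SMAD2 and SMAD4 are given whatever their values. The 3 genes most like MSTN, INHBA and FST are given too. CCDC97, IFT43 and bta-mir-11996 were named after their entries were seen. Alternatives covered pseudocount, filter, scaling, replicate block, variance trend, thresholds, each library left out and peak settings. Peaks of single samples and sequences under peaks were not analysed here.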

Additional observations from a re-analysis of the deposited data

How the results depend on the processing

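INHBA, SMAD7, TGFB3, MSTN and FST kept direction and call in all 12 alternatives of the expression fit. The number of the 10 genes that rose was 2, became 5 with TPM and 5 with median-ratio size factors (TGFB2, TGFBR2 and SMAD3 added), and ranged from 2 to 4 with 1 library left out, the 4 coming without GM replicate 3. The number that fell ranged from 3 to 4 there. Genes over 1.5-fold higher went from 1 to 2 with TPM. With a threshold of 2-fold, 1 of the 10 genes was lower and 3 of the other pathway genes were higher. TGFBR1 turned to 0.035 with TPM, SMAD4 ranged from -0.029 (without GM replicate 3) to 0.059 with 1 library left out, and FST to MSTN turned to -1.20 with 1 added to FPKM. With 1 library left out, log2 ratios stayed between -3.65 and -3.53 for FST to INHBA and between 0.65 and 0.96 for FST to MSTN. At a ratio over 2, 0 pairs of peaks were higher in DM, in place of 2. Taking peaks by position on either strand, chosen after seeing the data, gave 8 pairs with 2 higher.

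Replicate numbers gave no sign of pairing: deviations of same-numbered GM and DM cultures correlated at -0.08, -0.12 and -0.21. Differently numbered ones correlated at -0.06 to 0.19. Deviations from the mean of 3 cultures cannot show that the cultures were unpaired. With the replicate number as a block, 2 of the 10 genes rose and 3 fell, as without it, 12 of the other pathway genes rose and 12 fell in place of 13 and 15, and ACVR2B lost its call.

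Read depth is not in the FPKM values, and the mapped reads that the paper gives per library were not used. The counting error of MSTN was therefore not estimated, and peaks have 1 value per group.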

Other observations

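Peaks of the other pathway genes were counted by gene name. Entries at their loci under the name of another gene, as seen for INHBA, were not searched for. Of the 40 tested, 31 had a GM peak (70.9% of all tested genes), 33 a DM peak (78.7%) and 6 neither (19.0%). FN1, LTBP1 and TGFBR3 were among the last. The 30 pairs in 24 of the 40 genes had a median ratio of 1.13. They included 3 with fold enrichment over 1.5-fold higher in DM and 3 lower (20%, beside 25.0% of all pairs). The 3′ UTR peak of INHBB, whose mRNA rose, went from 4.22 to 7.34, and that of INHBE, whose mRNA fell, from 63.2 to 38.3. The FSTL3 3′ UTR peak covered the same 419 bases in both lists, with 9.25 in GM and 6.37 in DM. SMAD2 had 3.11 and 3.91, and PMEPA1 4.51 and 5.17. By name, SMAD4 had 2 DM peaks and no GM peak.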
